A study of Mus musculus with 12 samples.

Results

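The nuclear-encoded subunits of respiratory complex I were measured as mRNA in haematopoietic stem and progenitor cells of mouse bone marrow. The set held 35 genes whose symbols begin with Nduf, out of 54532 genes in the count table. They were chosen by name, with earlier results of these data known. All 35 were found and all 35 passed the filter on low counts, which left 15003 genes to be tested. They comprise 8 subunits of the NADH-oxidising (N) module, 7 of the ubiquinone-reducing (Q) module and its interface with the membrane, 9 of the proximal membrane arm and 11 of the distal membrane arm. The list does not hold every nuclear subunit, so the values below describe these 35 genes.

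Complex I is the entry enzyme of the mitochondrial respiratory chain. It takes electrons from NADH onto a bound flavin, passes them along a chain of iron-sulphur clusters to ubiquinone, and pumps protons across the inner membrane. A small set of core subunits does this chemistry, the other (accessory) subunits stabilise it, and some membrane subunits are encoded by the mitochondrial genome. Metformin, a biguanide used against diabetes, is known to inhibit complex I, and blood progenitors are known to rely more on respiration than quiescent stem cells do.

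The libraries came from Lin-ckit+ cells, that is bone marrow cells without markers of mature lineages and with the Kit receptor, sorted from C57BL/6 mice and lysed without culture. WT denotes Dnmt3a+/+ and RH denotes Dnmt3afl-R878H/+, a heterozygous R878H change in the DNA methyltransferase Dnmt3a. Both genotypes carried Mx1-cre, a recombinase under an interferon-inducible promoter that is active in blood cells and in other tissues. Mice of each genotype received vehicle or metformin for 1 month within an in vivo competition experiment, with 2 animals per treatment group, and each of the 4 groups has 3 libraries. No label names the animal behind a library. A p-value here therefore reflects variation among libraries, some of which may share an animal, and that variation may be technical. The ages of the mice and the way sequenced cells were separated from competing cells were not stated in the labels, and gene counts do not show whether the R878H change is present. Columns of the table carry the names used here (WT VEH 1 and so on), whose numbers are not always those of the sample titles. The 6 libraries that also stand in a smaller deposited table (RH MET 1 and 2, RH VEH 1, WT MET 1 and WT VEH 1 and 2) are called the first set, and the other 6 the second set. Within a set, each comparison between single groups has only 1 library on one side, so medians given for a set alone are not replicated.

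Library totals ran from 13359583 to 21938003 counts. All 7 progenitor markers, Kit among them, had counts in every library, and their summed level ran from 992 to 1484 CPM (counts per 1000000 counts, with library sizes scaled by the TMM factors of edgeR). Markers of the granulocyte and erythroid lineages were also above 0: the 11 granulocyte markers summed to 1490 to 7433 CPM and the 6 erythroid markers to 3156 to 7285 CPM. These sums do not separate progenitors of a lineage from its mature cells. WT MET 2 and RH VEH 2 stood apart, with 33.3% and 40.8% of their counts in mitochondrial genes against 1.57% to 4.32% in the other 10, so results that rest on them are also given without both. In bulk samples, fewer cells of a type and less RNA per cell cannot be told apart.

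Promoters of the subunits are shown first. The 35 genes differed from library to library largely in the same direction, as described below, and the part of promoter motifs in this was not tested. RefSeq promoter windows (build GRCm38.p6, 250 bases before to 50 after a start) were found for 32 of the 35 genes, in 34 windows. 5 motifs of factors known to act on respiratory genes were searched on both strands. GCGCANGCG (NRF1) was in 9 of 34 windows, 26.5%, against 6.25% of all 32851 windows, and AAGATGGCG (YY1) was in 5, 14.7% against 1.40%. TGACGTCA (CREB family) was in 3 windows, 8.82% against 1.79%. CCGGAAG (ETS family, GABPA) was in 4 windows, 11.8% against 8.86%, and GGGCGG (SP1 family), which can overlap the ETS motif, was in 16 windows, 47.1% against 35.7%. The shares describe letters in these windows and not binding, and the comparison is not adjusted for base composition. The YY1 matches of Ndufa9, Ndufc1, Ndufs4, Ndufs6 and Ndufs7 began 22 to 35 bases after the start. Below are the 100 bases before the RefSeq start of 4 genes, chosen because they show 3 of the motifs and lie mostly outside annotated exons, written 5′ to 3′ on the gene's strand with searched motifs, on either strand, in capitals. Ndufa11 (chr17:56717662-56717761, plus strand) holds 2 NRF1 matches that overlap by all but 1 base. Ndufs5 (chr4:123718187-123718286, minus strand) holds 1 NRF1 match, Ndufb2 (chr6:39592465-39592564, plus strand) 1 CREB match and Ndufv2 (chr17:66101560-66101659, minus strand) 1 SP1 match on the opposite strand.
Ndufa11: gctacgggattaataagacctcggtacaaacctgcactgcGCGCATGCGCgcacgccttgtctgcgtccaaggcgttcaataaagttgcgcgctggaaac
Ndufs5: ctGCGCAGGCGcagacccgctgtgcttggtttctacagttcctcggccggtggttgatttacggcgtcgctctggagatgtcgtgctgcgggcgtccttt
Ndufb2: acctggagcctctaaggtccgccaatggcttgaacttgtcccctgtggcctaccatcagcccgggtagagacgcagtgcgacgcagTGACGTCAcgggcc
Ndufv2: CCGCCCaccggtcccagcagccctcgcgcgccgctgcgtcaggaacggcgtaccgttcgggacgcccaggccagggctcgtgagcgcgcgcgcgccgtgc
Of these, Ndufa11, Ndufs5 and Ndufv2 are among the 12 subunits whose RH metformin libraries all lay below the WT metformin libraries, and Ndufb2 is not. Of the other genes with an NRF1 match, Ndufb10 is among the 12, and Ndufa5, Ndufa6, Ndufa8, Ndufb4 and Ndufs6 are not. Of the other genes with an SP1 match, only Ndufa3 and Ndufa13 are among them. Whether a motif goes with this difference was not tested.

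Per kilobase of transcript (the median length of the gene's basic GENCODE M21 transcripts), the subunits ranged over 1 gene far below the rest and 34 within about an order of magnitude. Ndufb7, a distal arm subunit facing the intermembrane space, had the highest level, 193 ± 82.6 CPM per kilobase (SD, n = 12 libraries), followed by Ndufb10 with 188 ± 65.8 and Ndufa6 with 164 ± 32.4. These 3 did not differ beyond their spread. Ndufb2, a small distal arm subunit (chr6:39592574-39603382), was lowest at 3.58 ± 0.682 CPM per kilobase. Next above it stood Ndufab1, the mitochondrial acyl carrier protein, at 23.9 ± 4.29 and Ndufa12 at 26.0 ± 11.3 CPM per kilobase. The length used for Ndufb2 is 2413 bases and for Ndufab1 2447.5 bases, long for this family, which lowers a level per length. Ndufb2 also shares 145 exon bases with Gm42420 on its own strand and 146 with Braf on the other, so its counts are uncertain. In all, 15 subunits share exon bases with another gene, 13 of them on the opposite strand and 3 on the same strand, and whether the counting used strand was not stated in the labels.

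**Figure D1:**
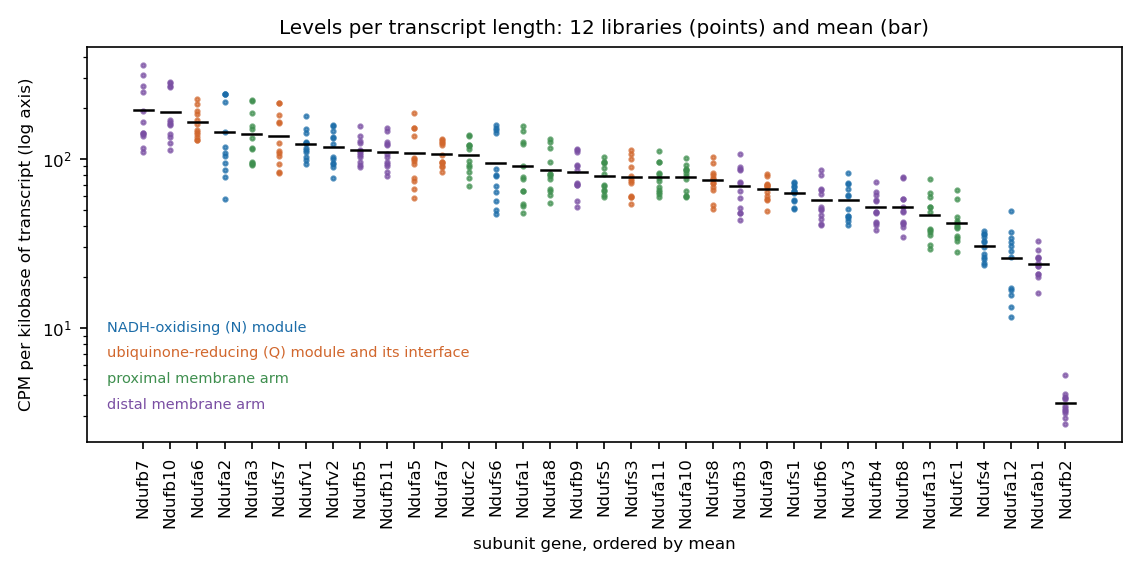
Level of each subunit in CPM per kilobase of transcript on a log axis, ordered by mean, with 12 libraries as points coloured by module and the mean as a bar. Ndufb7 stands at the top with 193 and Ndufb2 at the bottom with 3.58, well below Ndufab1 at 23.9.

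Across libraries, the subunits went up and down largely together, and the 2 vehicle groups each held libraries of both kinds. Counting subunits above their own mean over the 12 libraries (log2 CPM), WT VEH 1 had 35 of 35, WT VEH 2 had 3 and WT VEH 3 had 0. RH VEH 1 had 35, RH VEH 2 had 30 and RH VEH 3 had 1. The metformin groups were more even, with 20, 24 and 24 of 35 in the WT libraries and 9, 7 and 6 in the RH libraries. Over all 15003 genes the same share stayed between 48.9% and 53.0% in every library. Summed over the 35 subunits, the level was 3456, 2184 and 1947 CPM in WT vehicle, 2633, 3085 and 2642 in WT metformin, 3438, 3270 and 1920 in RH vehicle, and 2391, 2373 and 2164 in RH metformin. The span within either vehicle group was wider than the whole span of the metformin groups. The summed erythroid markers were also highest in WT VEH 1 of the WT vehicle libraries (7003 against 3611 and 3791 CPM) and in RH VEH 1 of the RH vehicle libraries (6004 against 5121 and 4117). WT VEH 3 and RH VEH 3, where the subunits were lowest, had the highest sums of their groups for stromal and endothelial markers (525 and 364 CPM, against 61.2 to 95.8 and 57.3 to 91.1), monocyte markers (355 and 311 CPM, against 184 to 186 and 78.0 to 214) and granulocyte markers (7433 and 5031 CPM, against 3493 to 3688 and 1586 to 3884). WT MET 3 and RH MET 3 were also highest of their groups for the same markers (374 and 315 CPM for stromal and endothelial markers). Their erythroid sums were highest of their groups too, at 7285 against 4918.5 and 5119 CPM in WT and 5126 against 3221 and 3156 in RH. WT MET 3 and RH MET 3 had 24 and 6 of 35 subunits above their mean. The part of these cells in the differences was not tested.

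**Figure D2:**
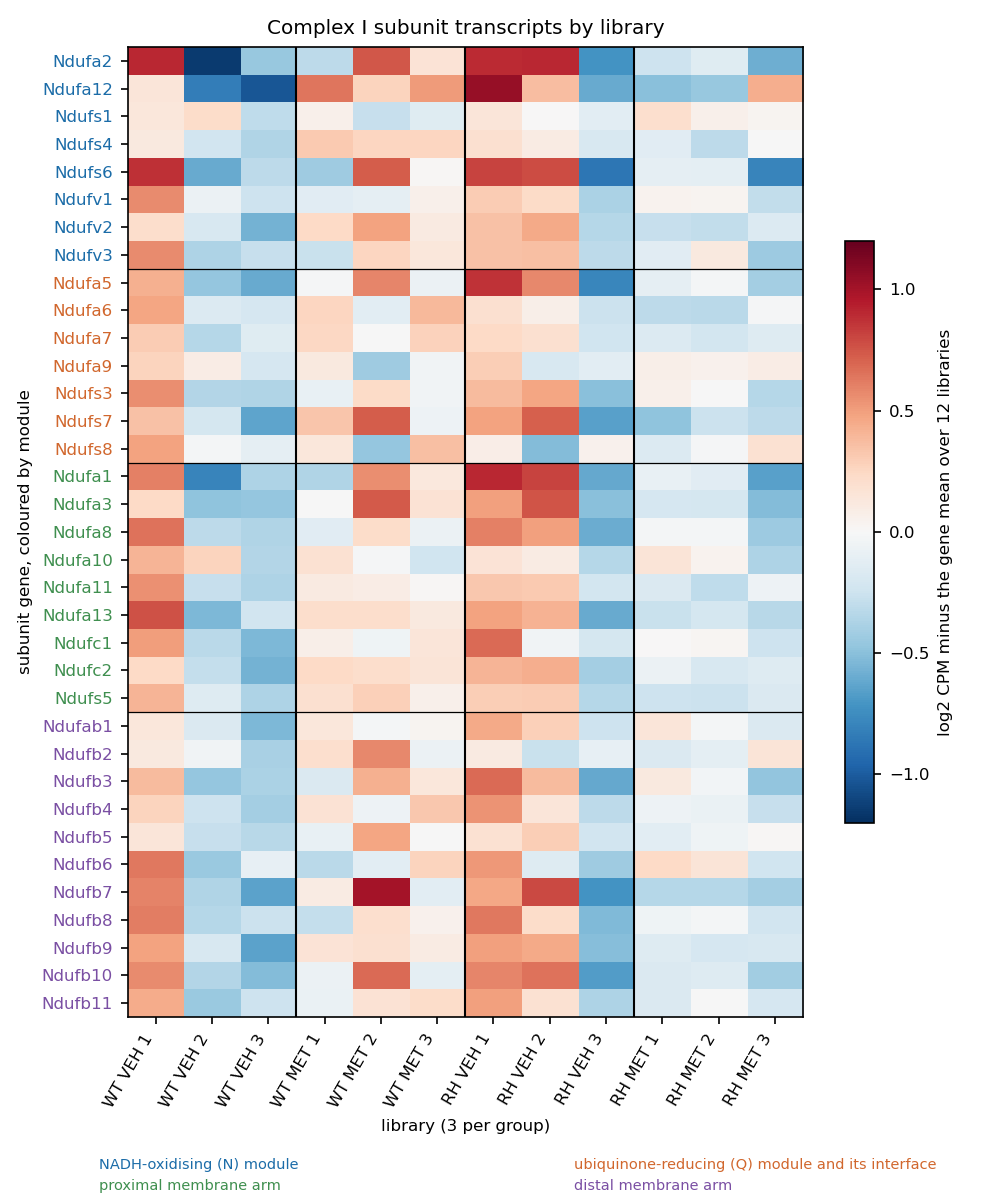
Each cell gives a subunit's log2 CPM in one library minus its mean over the 12 libraries, red above and blue below, with rows grouped by module and columns by group. WT VEH 1 and RH VEH 1 are above the mean in 35 of 35 rows, whereas WT VEH 3 and RH VEH 3 are above in 0 and 1.

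Under vehicle, the comparison asks how mutant and wild-type progenitors differ without metformin. There, 33 of 35 subunits had a higher estimate in RH than in WT, with a median log2 fold change of 0.26 and a range from -0.20 (Ndufs8) to 0.97 (Ndufa12). Over all genes the median was 0.00 and 50.3% were higher. No subunit passed adjusted p < 0.05 in edgeR's quasi-likelihood test with Benjamini-Hochberg adjustment (lowest adjusted p = 0.977), where the share of all genes called was 0%, and none was called by DESeq2. At unadjusted p < 0.05 there were 2, Ndufab1 and Ndufa12, or 5.71% of the subunits beside 2.03% of all genes. In 0 of 35 did every RH vehicle library lie above every WT vehicle library, against 2.71% of all genes. The median was 0.32 in the first set alone and 0.35 in the second. Its size depended on single libraries: 0.55 without WT VEH 1 and 0.12 without WT VEH 2 or WT VEH 3. It was 0.15 without RH VEH 1, 0.11 without RH VEH 2 and 0.44 without RH VEH 3.

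Under metformin the direction was the opposite. RH libraries were lower than WT in 33 of 35 subunits, with a median log2 fold change of -0.40 and a range from -0.84 (Ndufb7) to 0.13 (Ndufs1), against a median of -0.02 and 52.0% lower over all genes. No subunit was called by edgeR (lowest adjusted p = 0.738) or DESeq2, and 0.00667% of all genes, 1 gene, was called by edgeR. At unadjusted p < 0.05 there were 5 subunits, Ndufs4, Ndufv2, Ndufs5, Ndufs7 and Ndufa7, which is 14.3% beside 5.78% of all genes. In 12 of 35 (34.3%) every RH metformin library lay below every WT metformin library, where 8.94% of all genes did; of 915 other genes with transcripts under 1000 bases and a mean log2 CPM of at least 3, 29.6% did. The 12 subunits were Ndufa3, Ndufa7, Ndufa11, Ndufa13, Ndufb7, Ndufb9, Ndufb10, Ndufc2, Ndufs4, Ndufs5, Ndufs7 and Ndufv2. The median was -0.08 in the first set and -0.33 in the second, and -0.25 without WT MET 2.

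In RH cells, metformin libraries were lower than vehicle libraries in 32 of 35 subunits. The median log2 fold change was -0.38, from -0.92 (Ndufa2) to 0.08 (Ndufs8), against -0.01 over all genes, of which 50.7% were lower. No subunit was called by edgeR (lowest adjusted p = 0.931; 0% of all genes) or DESeq2, 1 subunit, Ndufv2, had an unadjusted p under 0.05 (2.43% of all genes did), and in none did every metformin library lie below every vehicle library (2.81% of all genes). The median was -0.58 in the first set and -0.19 in the second.

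In WT cells, metformin libraries were higher than vehicle libraries in 30 of 35 subunits. The median was 0.28, from -0.07 (Ndufa9) to 1.07 (Ndufa12), against 0.01 over all genes, of which 51.8% were higher. No subunit was called by edgeR (lowest adjusted p = 0.876; 0% of all genes) or DESeq2. Ndufs4, Ndufa12 and Ndufv2 had an unadjusted p under 0.05, 8.57% of the subunits beside 4.03% of all genes. In Ndufa12 and Ndufs4 every metformin library lay above every vehicle library, 2 of 35 against 4.98% of all genes. The direction was not shared by both sets. The median was -0.08 in the first set, where WT MET 1 is the only WT metformin library. In the second set, where WT VEH 3 is the only WT vehicle library, the median was 0.52. Over both sets, the median was 0.47 without WT VEH 1, 0.11 without WT VEH 2, 0.12 without WT VEH 3, 0.45 without WT MET 1 and 0.11 without WT MET 2.

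The difference of the metformin effects (RH minus WT) uses all 4 groups at once. It was negative in 32 of 35 subunits, with a median of -0.65 on the log2 scale against -0.02 over all genes, and ranged from -1.59 (Ndufa12) to 0.13 (Ndufs8). No subunit was called by edgeR (lowest adjusted p = 0.648; 0% of all genes) or DESeq2. At unadjusted p < 0.05 there were 8, Ndufv2, Ndufs4, Ndufb4, Ndufc2, Ndufab1, Ndufa3, Ndufa12 and Ndufs7, which is 22.9% beside 6.21% of all genes. The median was -0.53 in the first set and -0.70 in the second. These 5 comparisons share groups, so their signs are not independent of one another.

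Markers of blood lineages differed between the same groups, none of them called by edgeR. Between genotypes under metformin, 11 of 11 granulocyte markers (median log2 fold change 0.92) and 5 of 5 monocyte markers (0.39) were higher in RH, and 8 of 8 T and NK cell markers (-1.09), 6 of 6 erythroid (-0.24) and 4 of 4 megakaryocyte markers (-0.59) were lower. For metformin in RH the same 5 lists had medians of 1.12, 0.29, -1.02, -0.27 and -0.29, again with every member on the side of its median. Between genotypes under vehicle, 10 of 11 granulocyte markers were lower (-0.59) and 4 of 4 megakaryocyte markers higher (0.38). For metformin in WT 11 of 11 were lower (-0.39) and 4 of 4 higher (0.68). The remaining lists were mixed. Under vehicle, 4 of 5 monocyte markers were lower (-0.31), and 4 of 8 T and NK (0.09) and 4 of 6 erythroid markers (0.08) higher. For metformin in WT, 4 of 5 monocyte markers were lower (-0.38), and 6 of 8 T and NK (0.24) and 5 of 6 erythroid markers (0.21) higher. Summed granulocyte markers ran from 3493 to 7433 CPM in WT vehicle and 1490 to 5860 in WT metformin. In RH they ran from 1586 to 5031 under vehicle and 4484 to 7037 under metformin. Summed T and NK cell markers ran from 65.6 to 98.4, 84.3 to 112.9, 68.0 to 103.9 and 47.7 to 92.1 CPM in the same order. The groups compared overlapped in both sums. Summed megakaryocyte markers ran from 473 to 586, 642 to 1653, 578 to 1328 and 592 to 629 CPM. There WT metformin lay above both WT vehicle and RH metformin, and the other groups compared overlapped. No marker of these 5 lists that was tested is at 0 in every library. The part of these lineages in the subunit differences was not tested.

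Averaged over treatments, RH differed from WT by a median of -0.04 with 24 of 35 subunits lower. Averaged over genotypes, metformin differed from vehicle by -0.05 with 27 lower. In neither was a subunit called by edgeR or DESeq2 or under an unadjusted p of 0.05, where 2.65% and 1.63% of all genes were under it and 0.00667% and 0% were called by edgeR. Within sets the genotype median was 0.09 and -0.04, and the metformin median -0.32 and 0.15.

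**Figure D3:**
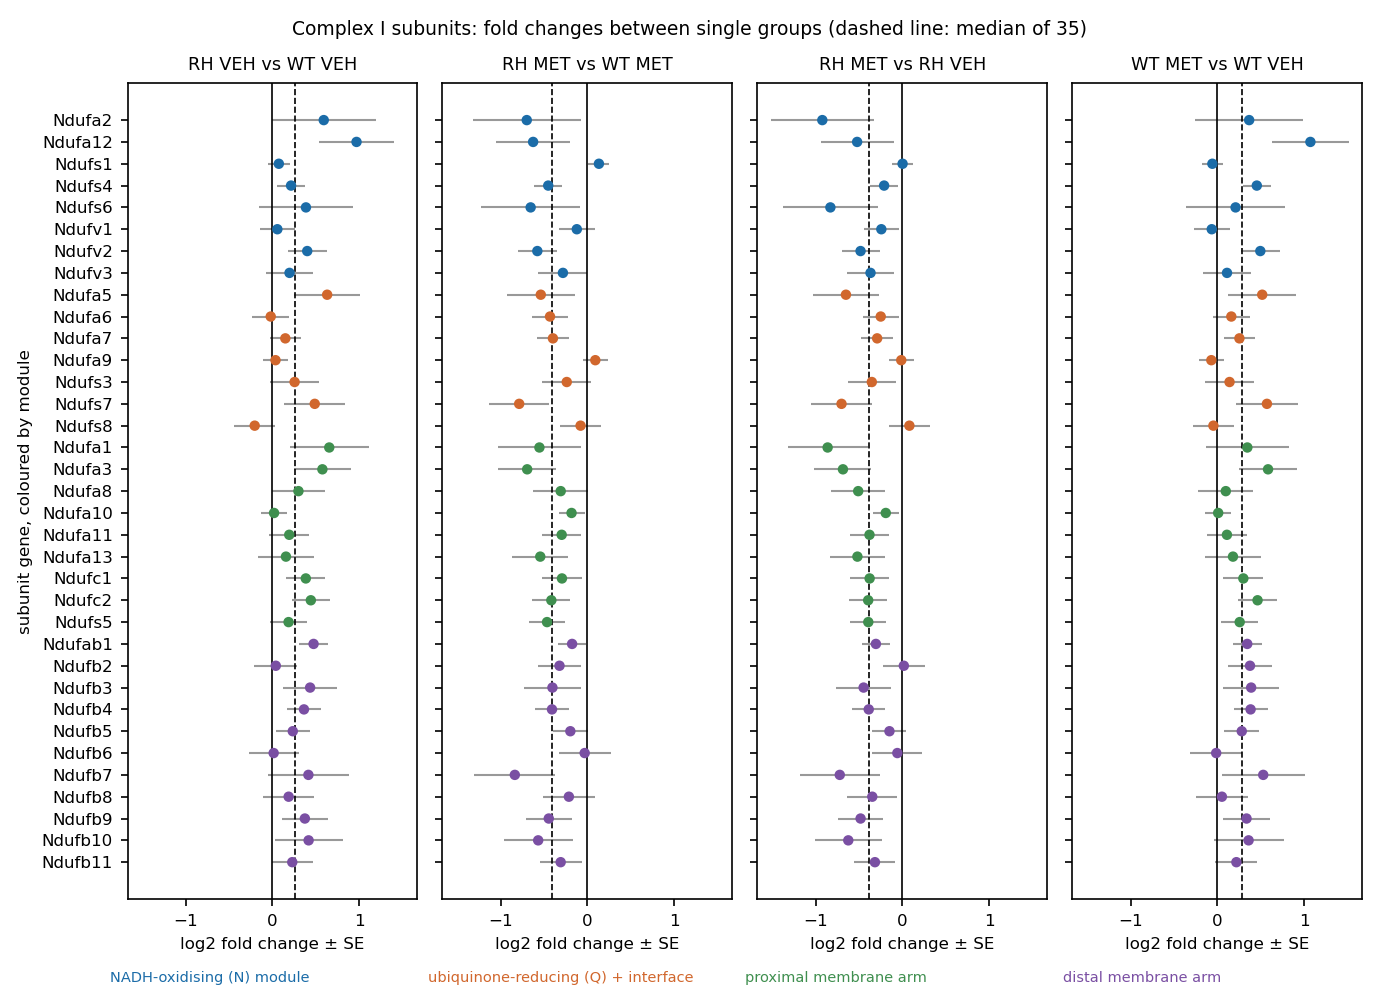
Log2 fold change (point) and its standard error (bar) of each of the 35 subunits in the 4 comparisons between single groups, coloured by module, with the median as a dashed line. The medians are 0.26, -0.40, -0.38 and 0.28, and no single subunit passed the adjusted threshold.

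In the N module, which binds NADH and holds the flavin, all 8 subunits were higher in RH than in WT under vehicle (median 0.30), and 7 of 8 were lower under metformin (median -0.51). Ndufv2 had CPM values of 173, 131 and 101 in WT vehicle, 176, 208 and 161 in WT metformin, 190.1, 205 and 117 in RH vehicle and 123, 121 and 133 in RH metformin. Ndufv2, a core subunit that carries an iron-sulphur cluster, was lower in all 3 RH metformin libraries than in any WT metformin library, while the vehicle groups overlapped. Its log2 fold change was -0.58 ± 0.221 (SE) between genotypes under metformin, -0.48 ± 0.219 for metformin in RH, 0.50 ± 0.226 for metformin in WT, and its difference of metformin effects was -0.98 ± 0.324 (unadjusted p = 0.0103, edgeR adjusted p = 0.648).

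Ndufs4 had CPM values of 55.5, 43.5 and 39.7 in WT vehicle, 63.5, 60.9 and 61.0 in WT metformin, 58.1, 54.7 and 44.5 in RH vehicle and 46.5, 41.0 and 50.7 in RH metformin. Ndufs4, an accessory subunit needed for a stable N module, was highest in the 3 WT metformin libraries, which overlapped neither WT vehicle nor RH metformin. The log2 fold change was 0.46 ± 0.162 for metformin in WT and -0.45 ± 0.159 between genotypes under metformin, with edgeR adjusted p of 0.876 and 0.738.

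Ndufa12 had CPM values of 22, 11.2 and 9.67 in WT vehicle, 31.0, 23.9 and 28.3 in WT metformin, 41.0, 25.7 and 13.02 in RH vehicle and 14.0, 14.4 and 27.0 in RH metformin. Ndufa12, an accessory subunit at the base of the N module, had the widest range of the 35, 2.08 on the log2 scale from WT VEH 3 to RH VEH 1. WT vehicle lay below WT metformin in every library, and the RH groups overlapped each other. Its log2 fold change was 1.07 ± 0.443 for metformin in WT and 0.97 ± 0.433 between genotypes under vehicle (edgeR adjusted p of 0.876 and 0.977).

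Ndufv1 had CPM values of 273, 175 and 155 in WT vehicle, 168, 171 and 193 in WT metformin, 228, 216 and 142 in RH vehicle and 189, 188 and 149.9 in RH metformin. Ndufv1 holds the flavin and the NADH site, and its groups overlapped in every comparison. Ndufs1 had CPM values of 179, 189.8 and 132 in WT vehicle, 169, 134 and 147 in WT metformin, 180.3, 163 and 149 in RH vehicle and 187, 169 and 166 in RH metformin. Ndufs1, the largest core subunit of the module and the longest transcript of the 35, had the narrowest range, 0.53 on the log2 scale, and was the subunit with the highest estimate between genotypes under metformin (0.13 ± 0.122). Ndufa2 and Ndufs6, 2 further accessory subunits, varied most after Ndufa12, with ranges of 2.06 and 1.75 that followed the library pattern of the whole set.

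The Q module carries electrons to ubiquinone. Of its 7 subunits, 5 were higher in RH than in WT under vehicle (median 0.15) and 6 were lower under metformin (median -0.40). Ndufs7 had CPM values of 143, 97.0 and 72.6 in WT vehicle, 141, 185 and 108 in WT metformin, 157, 185 and 71.5 in RH vehicle and 80.6, 94.0 and 90.4 in RH metformin. Ndufs7 holds the iron-sulphur cluster next to ubiquinone, and its RH metformin libraries all lay below the WT metformin libraries, at a log2 fold change of -0.79 ± 0.349 (unadjusted p = 0.0473, edgeR adjusted p = 0.738).

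Ndufs8 had CPM values of 99.9, 70.3 and 66.3 in WT vehicle, 78.5, 51.8 and 91.8 in WT metformin, 75.2, 49.7 and 74.2 in RH vehicle and 63.7, 70.7 and 81.0 in RH metformin. Ndufs8, a core subunit with iron-sulphur clusters, differed from this pattern, with its lowest values in WT MET 2 and RH VEH 2, the libraries rich in mitochondrial transcripts. Ndufs3 had CPM values of 117, 62.4 and 61.9 in WT vehicle, 74.9, 93.6 and 77.5 in WT metformin, 104, 111 and 56.2 in RH vehicle and 82.9, 79.3 and 62.6 in RH metformin. For Ndufs3, a core subunit of the same arm, all group ranges overlapped. Ndufa6 had CPM values of 85.4, 54.95 and 53.4 in WT vehicle, 73.4, 56.2 and 80.7 in WT metformin, 70.1, 64.7 and 51.5 in RH vehicle and 49.5, 49.2 and 60.8 in RH metformin. Ndufa6 binds the acyl carrier protein and had the smallest p for the mean genotype effect, -0.23 ± 0.145 (unadjusted p = 0.144, edgeR adjusted p = 1.00), with overlapping groups. Ndufa9 had log2 fold changes between -0.07 and 0.09 in the 4 comparisons between single groups.

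In the proximal membrane arm all 9 subunits pointed the same way in each comparison: higher in RH under vehicle (median 0.30), lower in RH under metformin (-0.42), lower with metformin in RH (-0.39) and higher with metformin in WT (0.26). Ndufs5 had CPM values of 61.4, 41.6 and 35.7 in WT vehicle, 53.0, 56.4 and 48.3 in WT metformin, 57.0, 57.4 and 36.5 in RH vehicle and 39.0, 38.7 and 41.1 in RH metformin. Ndufs5, an accessory subunit on the intermembrane-space side, had its 3 RH metformin libraries within 38.7 to 41.1 CPM, all below WT metformin, at -0.47 ± 0.208 (unadjusted p = 0.0444, edgeR adjusted p = 0.738). Ndufa3 had CPM values of 67.6, 40.8 and 41.5 in WT vehicle, 57.0, 95.4 and 64.4 in WT metformin, 80.4, 96.7 and 40.3 in RH vehicle and 49.7, 49.3 and 39.8 in RH metformin. For Ndufa3, a small membrane-spanning subunit, the metformin effect in RH was -0.68 ± 0.328, and 1 vehicle library, RH VEH 3, lay among the metformin libraries.

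Ndufc2 had CPM values of 69.5, 48.3 and 39.8 in WT vehicle, 69.4, 68.3 and 65.5 in WT metformin, 78.0, 79.7 and 44.3 in RH vehicle and 56.1, 51.6 and 53.1 in RH metformin. Ndufc2, another membrane subunit, was higher in RH than in WT under vehicle by 0.44 ± 0.219 on the log2 scale, with RH VEH 3 inside the range of the WT libraries. Its WT metformin libraries, between 65.5 and 69.4 CPM, lay above all RH metformin libraries.

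The distal membrane arm had 11 of 11 subunits higher in RH than in WT under vehicle (median 0.36) and 11 of 11 lower under metformin (median -0.32). Ndufab1 had CPM values of 63.5, 51.1 and 39.5 in WT vehicle, 63.4, 56.8 and 58.8 in WT metformin, 79.2, 70.2 and 48.6 in RH vehicle and 63.7, 56.6 and 51.2 in RH metformin. Ndufab1 had the smallest p of the set under vehicle, 0.47 ± 0.166 (unadjusted p = 0.0139, edgeR adjusted p = 0.977), and the vehicle groups overlapped. A pseudogene copy, Ndufab1-ps, had 9.02 to 18.3 CPM, and the labels do not state how reads matching both were counted, so the split between them is uncertain.

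Ndufb4 had CPM values of 59.1, 41.1 and 36.9 in WT vehicle, 55.4, 46.9 and 61.4 in WT metformin, 71.0, 54.3 and 39.5 in RH vehicle and 47.1, 46.2 and 40.5 in RH metformin. For Ndufb4, an accessory subunit of the same arm, the difference of metformin effects was -0.77 ± 0.282 (unadjusted p = 0.0175, edgeR adjusted p = 0.648). Ndufb7 had CPM values of 168, 86.7 and 71.4 in WT vehicle, 119, 223 and 103 in WT metformin, 154, 193 and 68.1 in RH vehicle and 88.1, 87.9 and 84.4 in RH metformin. Ndufb7 had 3 RH metformin libraries between 84.4 and 88.1 CPM, below the WT metformin libraries, whose highest was WT MET 2. Ndufb2 had CPM values of 9.26, 8.28 and 6.48 in WT vehicle, 9.78, 12.8 and 8.10 in WT metformin, 9.17, 7.04 and 7.91 in RH vehicle and 7.53, 7.81 and 9.45 in RH metformin. Ndufb2 had the smallest p for the mean metformin effect, 0.20 ± 0.170 (unadjusted p = 0.266, edgeR adjusted p = 1.00), with its highest value in WT MET 2.

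Transcript length moved with the library pattern. The 35 subunits are short, with a median of 782 bases (382 to 2625.5), and 24 of them are under 1000 bases, against a median of 2409 bases and 15.9% under 1000 over the 14991 tested genes with a length. Library by library, 915 other genes with transcripts under 1000 bases and a mean log2 CPM of at least 3 deviated from their means in the same direction as the subunits. Their median deviation was 0.26, -0.21 and -0.25 in WT vehicle, where that of the subunits was 0.45, -0.32 and -0.37. It was 0.09, 0.16 and 0.11 in WT metformin (subunits 0.09, 0.22 and 0.10), 0.26, 0.24 and -0.28 in RH vehicle (subunits 0.46, 0.32 and -0.38) and -0.12, -0.12 and -0.12 in RH metformin (subunits -0.13, -0.11 and -0.24). Across the 35 subunits, which share the same 12 libraries, the SD of log2 CPM over libraries was lower for longer transcripts (Pearson's r = -0.46, Spearman's rho = -0.42, across genes and given as a description).

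**Figure D4:**
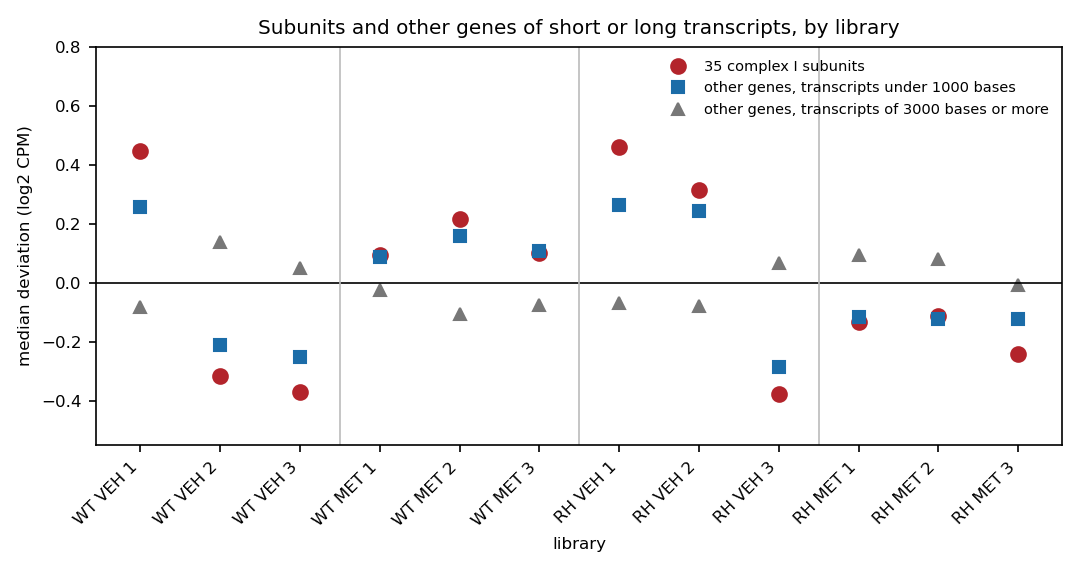
Median deviation of log2 CPM from each gene's mean, for the 35 subunits (circles), 915 other genes with transcripts under 1000 bases (squares) and 3815 other genes with transcripts of at least 3000 bases (triangles), by library. Circles and squares lie on the same side of 0 in all 12 libraries.

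The same held for the fold changes. Among other genes under 600 bases (259 genes) the median log2 fold change was 0.23 between genotypes under vehicle, -0.38 between genotypes under metformin, -0.34 for metformin in RH and 0.25 for metformin in WT. The 11 subunits of that length had medians of 0.39, -0.47, -0.39 and 0.26. Genes of 3000 bases or more went slightly the other way, with -0.07, 0.11, 0.07 and -0.10. After the trend with transcript length was removed within each library, the medians of the 35 subunits were 0.16, -0.18, -0.20 and 0.10, and that of the difference of metformin effects was -0.34. Subunits above 0 then numbered 29, 5, 5 and 24 in the 4 comparisons and 5 in the difference. No subunit was called after this step either.

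**Figure D5:**
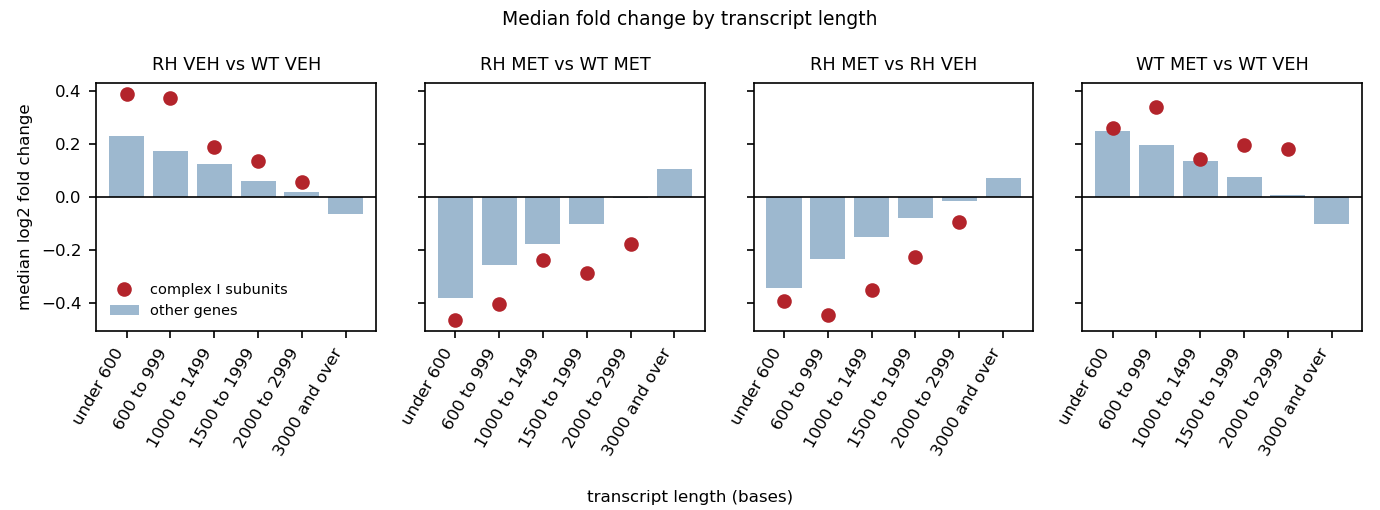
Median log2 fold change of other tested genes (bars) and of the subunits (points) by transcript length in the 4 comparisons between single groups; no subunit is 3000 bases or longer. The bars shrink with length and change sign at the longest class, from 0.23 to -0.07 in the first comparison, and the points lie on the same side of 0 as the bars for short genes.

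The 7 subunits that mitochondrial DNA encodes, which form the core of the membrane arm, followed the 2 libraries rich in mitochondrial transcripts, with summed levels of 145087 CPM in WT MET 2 and 215109 CPM in RH VEH 2 and at most 14155 CPM in the other 10. Their median log2 fold changes in the same 4 comparisons were 2.52, -2.11, -2.34 and 2.17, with -4.64 for the difference of metformin effects, and none was called. Without both libraries these were 0.60, -0.35, -0.38, 0.64 and -0.95. The smallest p among them belonged to mt-Nd1 under vehicle (2.73 ± 1.72, edgeR adjusted p = 0.977), to mt-Nd3 between genotypes under metformin (-2.13 ± 1.46, 0.742) and for metformin in RH (-2.32 ± 1.46, 0.931), and to mt-Nd4 for metformin in WT (2.24 ± 1.62, 0.876). The nuclear-encoded subunits without both libraries had medians of 0.12, -0.26, -0.27 and 0.15, with -0.45 for the difference. With the length trend also removed the medians were 0.10, -0.09, -0.18, 0.04 and -0.23. The granulocyte markers summed to 1490 and 1586 CPM in these 2 libraries against 3493 to 7433 in the others, and the megakaryocyte markers to 1653 and 1328 CPM against 473 to 816. The part of these cells in the subunit values was not tested.

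Factors that assemble complex I without remaining in it had medians on the same side of 0 as the subunits in the 4 comparisons, though that under metformin was near 0. Of 17 tested, 15 were higher in RH than in WT under vehicle (median 0.26), and under metformin 10 were lower and 7 higher (median -0.06). For metformin in RH 15 were lower (median -0.09), and in WT 12 were higher (median 0.17). With the length trend removed within each library, the 4 medians were 0.18, 0.03, -0.06 and 0.08, so that the median under metformin changed side. None was called. Tmem126b, which helps build the membrane arm, had the smallest p under vehicle (0.48 ± 0.204, edgeR adjusted p = 0.977) and for metformin in WT (0.46 ± 0.205, 0.876). Dmac1, another assembly factor of the membrane arm, had it between genotypes under metformin (-0.51 ± 0.249, 0.738) and for metformin in RH (-0.57 ± 0.247, 0.931).

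Nuclear subunits of complexes II to V gave medians on the same side as complex I in each comparison. The 39 tested had 0.21, -0.27, -0.32 and 0.21 in the 4 comparisons, with 32 higher, 34 lower, 35 lower and 30 higher, and none was called. With the length trend removed within each library, these medians were 0.11, -0.06, -0.16 and 0.07. Cox7c, a small subunit of cytochrome c oxidase, had the smallest p under vehicle (0.60 ± 0.278, edgeR adjusted p = 0.977) and for metformin in RH (-0.66 ± 0.275, 0.931), and Cox6c of the same enzyme between genotypes under metformin (-0.59 ± 0.208, 0.738) and for metformin in WT (0.62 ± 0.211, 0.876).

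Medians were nearer to 0 for regulators of mitochondrial biogenesis, and on the other side of 0 for 5 ubiquinone-reducing enzymes outside complexes I and II. The 10 regulators tested had medians of 0.08, -0.0045, -0.09 and 0.05, none was called, and the smallest p belonged to Tfam under vehicle (0.21 ± 0.144, edgeR adjusted p = 0.977), Gabpa between genotypes under metformin (0.26 ± 0.162, 0.738), Polrmt for metformin in RH (0.22 ± 0.150, 0.931) and Yy1 for metformin in WT (-0.19 ± 0.110, 0.876). Complex II, which also reduces ubiquinone, had medians of 0.13, -0.08, -0.16 and 0.04 over its 4 subunits, on the same side as complex I. The 5 enzymes outside complexes I and II had medians of -0.07, 0.26, 0.21 and -0.06, on the other side of 0. Of these 5, 3 were lower, 4 higher, 4 higher and 3 lower in the 4 comparisons. Among them Gpd2, the mitochondrial glycerol phosphate dehydrogenase, had the smallest p in all 4 comparisons: -0.22 ± 0.152, 0.26 ± 0.152, 0.26 ± 0.153 and -0.22 ± 0.151, at edgeR adjusted p of 0.977, 0.738, 0.931 and 0.876. Whether these lists differ from the 35 subunits was not tested.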

How the data were processed

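The authors deposited raw read counts per gene in a table of 12 libraries (whole numbers) and a smaller table that holds 6 of the same libraries; 2 of its columns match no sample and were not used. STAR 2.5, HTSeq 0.6.1 and mm10 are named in the submitters' processing notes; the strand setting, the treatment of reads with several matches and the annotation release are not given in the sources used here. Reads are 150-base pairs, per the labels' protocols. Of the table's columns, 7 could be tied to a group but not to 1 sample.

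Counts were fitted with edgeR 4.0.16 (R 4.3.3; quasi-likelihood, robust, TMM factors, filterByExpr) over all 12 libraries, with a term for each group and one for the set (libraries in both tables or in the larger one alone). The set crosses the groups, and in a set alone some groups hold 1 library. p-values were adjusted over all 15003 genes tested and called at adjusted p < 0.05. The 7 comparisons were the 4 between single groups, the difference of metformin effects and the 2 mean effects. CPM values are TMM-scaled. Transcript lengths are medians of basic GENCODE M21 transcripts, and promoters are from RefSeq. Given with all libraries are the core subunits, the 3 of smallest p in each comparison, the widest range and the highest and lowest level per length. DESeq2 1.42.0 was an alternative, with other scalings, filters and left-out libraries. On simulated counts for metformin in RH, 48 of 50 genes changed 4-fold and 28 of 50 changed 2-fold were called in each direction among 14749 genes, with 5 false calls. The simulated counts held no set effect and no variation shared between genes, so these rates do not extend to smaller changes shared by the subunits. Library totals were 13359583 to 21938003 counts, and every subunit had 59 counts or more in every library. The subunits and the lists were chosen with earlier results of these data known, and the removal of length trends was added after the values were seen.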

Additional observations from a re-analysis of the deposited data

How the results depend on the processing

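The median log2 fold changes of the 35 subunits kept their sign in the 4 comparisons between single groups and in the difference of metformin effects under every alternative run but 1: with the first set of libraries alone, metformin in WT gave -0.081. The difference of metformin effects was -0.23 with library totals in place of TMM factors and -0.23 with the length trend removed and without both libraries rich in mitochondrial transcripts. Library totals shifted the median of all genes by -0.19, 0.18, 0.23 and -0.14 in the 4 comparisons; relative to that shift the subunits stood at 0.21, -0.40, -0.33 and 0.26. Leaving out 1 library at a time gave 0.11 to 0.55 and -0.53 to -0.25 between genotypes under vehicle and metformin, -0.54 to -0.27 and 0.11 to 0.47 for metformin in RH and WT, -0.83 to -0.48 for the difference, and -0.13 to 0.11 and -0.16 to 0.08 for the mean genotype and metformin effects, whose sign was not stable. With only the first set, the mean metformin effect of Ndufb2 was -0.057 and of Ndufs4 -0.032, against 0.20 and 0.12.

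No subunit was called under any alternative but the fit without a filter on low counts, which called 1 (Ndufa12) between genotypes under vehicle, 3 (Ndufa2, Ndufb7, Ndufs7) under metformin, 5 (Ndufa1, Ndufa2, Ndufb7, Ndufs6, Ndufs7) for metformin in RH, 1 (Ndufa12) for metformin in WT and 9 for the difference of effects. That fit called 63 to 431 genes in all per comparison, against 0 or 1 with the filter, and DESeq2 0 to 22. The cause was not tested.

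With the column number as a replicate block, the medians were 0.19, -0.31, -0.29, 0.23 and -0.48, with 0 subunits called. Deviations were correlated above 0.1 in 14 of 18 pairs with the same number (-0.01 to 0.49), against 5 of 36 with different numbers. Of the 12 libraries, 10 correlated best with one of their own number, a hint of a shared number that comes from the data. Number and set overlap, since all libraries numbered 1 are of the first set and all numbered 3 of the second. The part of a shared set in these correlations was not tested. The block was left out of the reported fits because no label ties a number to an animal, batch or day and a correlation above 0.1 in every pair was required, which 4 pairs did not reach. As to depth, Ndufb2 had 59 to 235 counts per library and every other subunit at least 200.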

Other observations

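Among genes known to carry metformin into cells, Slc22a3 and Slc22a4 passed the filter on low counts, with 26.8 to 56.6 CPM and 23.5 to 40.9 CPM over the 12 libraries. Slc22a2 had 0 counts in every library. Neither Slc22a3 nor Slc22a4 was called by edgeR in a comparison between single groups, and the smallest p was that of Slc22a3 for metformin in RH (log2 fold change -0.29 ± 0.163 SE, adjusted p = 0.931). Ppargc1a, a coactivator of respiratory genes in muscle and brown fat, had at most 2 counts in a library.

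Among rows named like subunits but outside the set, Ndufa4, known today as a part of cytochrome c oxidase, had 145 to 227 CPM over the 12 libraries. Ndufb4c had 0.00 to 2.17 CPM, and Ndufs6b and Ndufa11b did not pass the filter, with at most 22 and 3 counts in a library.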
